A study of Mus musculus with 6 samples.

Results

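The platelet glycoprotein and alpha granule genes are 10 genes, *Pf4*, *Ppbp*, *Itga2b*, *Itgb3*, *Gp1ba*, *Gp1bb*, *Gp9*, *Gp5*, *Gp6* and *Vwf*, chosen by name for what their products do in platelets and taken from the 39179 mouse genes counted in whole bone marrow. Their RNA was read in 6 littermate mice that were aged 3 months when treated. The 3 *MxCDX2* mice (*RsCDX2::Mx1Cre*) carried both the *RsCDX2* knockin, with the human *CDX2* coding sequence behind a loxP-flanked stop at *Rosa26*, and the *Mx1Cre* transgene, in which the interferon-inducible *Mx1* promoter drives Cre. The 3 control mice were 1 *RsCDX2* mouse, which had the knockin and no Cre, 1 *Mx1Cre* mouse, which had Cre and no knockin, and 1 wild-type mouse with neither. Every mouse, controls included, received poly(I:C) 3 times intraperitoneally at 10 µg per g of body weight, and marrow RNA was taken 6 weeks later. The *Mx1* promoter responds to interferon in many cell types, so Cre was not limited to megakaryocytes. Each control genotype was a single mouse, so a difference between control genotypes has no replicate and no test.

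Megakaryocytes are the large polyploid marrow cells that shed platelets. A platelet first meets an injured vessel wall through the GPIb-IX-V complex, which binds von Willebrand factor held on exposed collagen, and glycoprotein VI then binds collagen itself and signals. The integrin alphaIIb-beta3 is activated by these signals and ties platelets to each other through fibrinogen, while alpha granules release chemokines and von Willebrand factor. Most of these genes are transcribed late in megakaryocyte maturation, under transcription factors that include GATA1, with its cofactor FOG1 (gene *Zfpm1*), and ETS proteins such as FLI1.

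Between 38646101 and 49899650 reads per mouse were counted on genes, and 15980 genes passed the filter on low counts, all 10 platelet genes among them. All levels below are normalized counts, scaled to a common library size by edgeR's TMM method, unless they are named as reads. A gene was called lower or higher where edgeR's quasi-likelihood test gave an adjusted p below 0.05 and the log2 fold change was beyond 1 in either direction. Reads on mouse *Cdx2*, the row on which reads of the human sequence could land, numbered 152, 155 and 183 in the *MxCDX2* mice and 4, 0 and 0 in the *RsCDX2*, *Mx1Cre* and wild-type controls. Markers of neutrophils, erythroid cells and B cells, the main populations of marrow, were counted in all 6 mice.

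All 10 genes had a negative log2 fold change in the *MxCDX2* marrows, between -1.99 and -3.80, and 9 of 10 were lower in every *MxCDX2* mouse than in every control mouse. The thresholds were passed by 3 of them, *Gp1ba*, *Gp9* and *Gp5*, where 9.03% of all tested genes were called lower and 4.59% higher. The wild-type mouse held 6.3 to 13.9 times the mean level of the *RsCDX2* and *Mx1Cre* controls for these genes, and the SD of the control group exceeded its mean for all 10. Against the *RsCDX2* and *Mx1Cre* controls alone the fold changes were smaller, between -0.50 and -1.92, their standard errors were smaller too, and 6 of the 10 genes were called lower. In RNA of whole marrow, fewer megakaryocytes and less of their RNA per cell cannot be told apart.

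**Figure D1:**
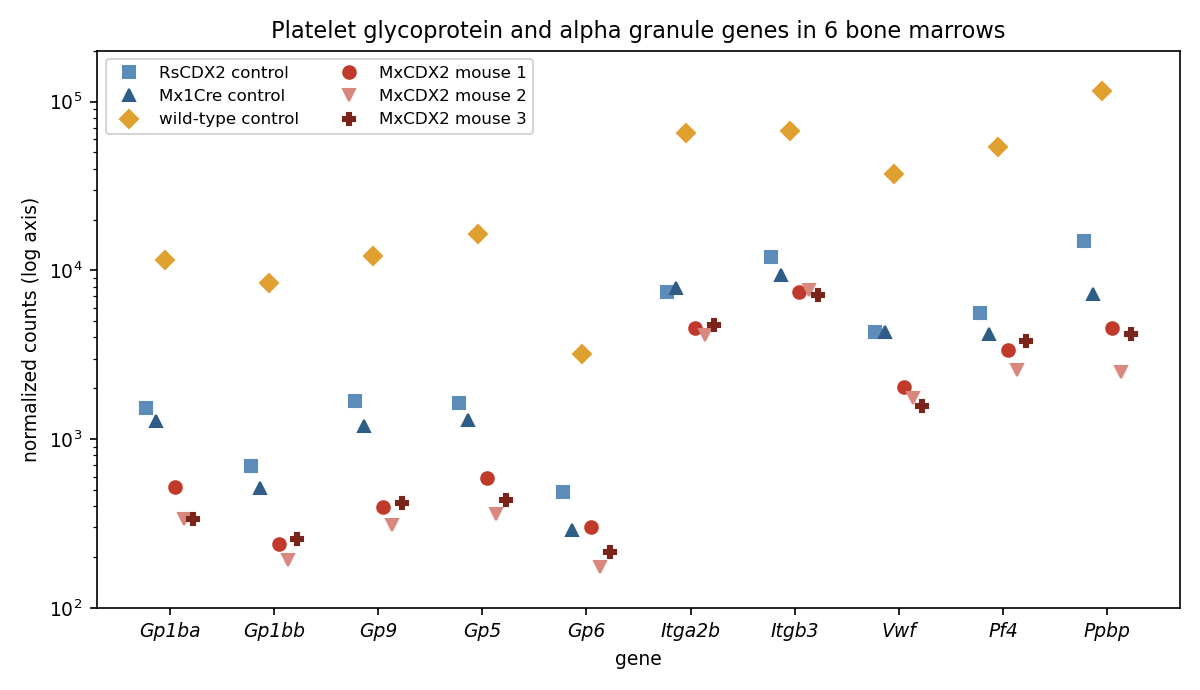
Normalized counts (log axis) of the 10 genes in each of the 6 bone marrows, with 1 symbol per mouse. For every gene the wild-type control stands far above the *RsCDX2* and *Mx1Cre* controls, and the 3 *MxCDX2* mice lie below both of these except for *Gp6*, where *MxCDX2* mouse 1 (301.9) lies above the *Mx1Cre* control (289.9).

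The promoters of the 3 called genes and of *Gp6*, the gene whose groups overlapped, are shown because GATA and ETS proteins are known regulators of megakaryocyte genes and the GATA1 gene is among those that fell in these marrows. RefSeq windows on GRCm38.p6, from 250 bases before to 50 bases after the transcription start, were found for 8 of the 10 genes and not for *Itgb3* and *Vwf*. They were searched on both strands for GATA words, which were AGATAA with its variant AGATAG and, beginning with another base, TGATAA with its variant TGATAG, and for the ETS word AGGAAG. None of these matches overlapped another in the 8 windows. The last 150 bases before the start are printed 5′ to 3′ on the strand of the gene, and capitals mark the matches on either strand.
Gp1ba (chr11:70638972-70639121, plus strand): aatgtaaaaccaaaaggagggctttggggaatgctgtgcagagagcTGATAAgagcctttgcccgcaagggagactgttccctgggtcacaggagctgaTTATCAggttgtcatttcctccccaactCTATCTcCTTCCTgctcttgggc
Gp5 (chr16:30310782-30310931, minus strand): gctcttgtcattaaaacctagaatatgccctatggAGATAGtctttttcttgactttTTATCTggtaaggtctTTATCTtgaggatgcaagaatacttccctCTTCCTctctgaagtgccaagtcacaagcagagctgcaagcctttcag
Gp9 (chr6:87777920-87778069, plus strand): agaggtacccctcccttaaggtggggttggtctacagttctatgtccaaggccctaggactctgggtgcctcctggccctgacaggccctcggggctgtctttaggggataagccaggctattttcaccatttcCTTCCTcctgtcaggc
Gp6 (chr7:4397745-4397894, minus strand): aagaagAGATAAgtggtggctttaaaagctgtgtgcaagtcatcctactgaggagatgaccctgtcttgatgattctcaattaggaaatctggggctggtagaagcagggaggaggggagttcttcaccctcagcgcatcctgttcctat
At least 1 GATA word was present in 5 of the 8 windows, against 9778 of 32851 promoter windows of the same length in the genome (29.8%). *Gp1ba* held 3 of them, beginning 104, 51 and 23 bases before the start, and *Gp5* held 3, beginning 115, 93 and 77 bases before it. *Gp6* held 1 at 144 bases and *Gp1bb* 1 at 22 bases before the start, and *Pf4* held 1 at position 37 after it. None of the searched GATA words was found in the windows of *Ppbp*, *Itga2b* and *Gp9*, and *Gp9* is one of the called genes. The printed *Gp9* stretch does hold GATAA after a G (ggataag). It is not marked, because the searched words all have A or T before GATA. The ETS word was present in 6 of the 8 windows and in 35.4% of all windows, 16 bases before the start in both *Gp1ba* and *Gp9* and 48 bases before it in *Gp5*. These matches describe the letters of the windows and are not evidence of binding.

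The GPIb-IX-V complex, the platelet receptor for von Willebrand factor, is encoded by *Gp1ba*, *Gp1bb*, *Gp9* and *Gp5*. *Gp1ba* (chr11:70639122-70642036, GRCm38, plus strand, a protein-coding gene with 2 exon blocks) encodes GPIb-alpha, the chain that binds the ligand. Its normalized counts were 1518 in the *RsCDX2* control, 1278 in the *Mx1Cre* control and 11484 in the wild-type control, against 523.3, 334.1 and 335.1 in *MxCDX2* mice 1, 2 and 3. Every *MxCDX2* mouse was below every control, and the mean fell from 4760 ± 5824 to 397.5 ± 108.9 (SD, n = 3 mice per group). The log2 fold change was -3.58 ± 0.92 (SE), with an adjusted p of 0.0359 in edgeR's quasi-likelihood test. *Gp9* (chr6:87778072-87779768, plus strand, 2 exon blocks) encodes GPIX, which the complex needs to reach the cell surface. It was counted at 1678, 1195 and 12109 in the *RsCDX2*, *Mx1Cre* and wild-type controls and at 398.3, 308.6 and 418.7 in the *MxCDX2* mice, again without overlap. Its log2 fold change was -3.73 ± 0.93 (adjusted p = 0.0325, edgeR), the smallest adjusted p of the 10 genes.

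*Gp5* (chr16:30307685-30310779, minus strand, 2 exon blocks) encodes GPV, a thrombin substrate in the same complex. Its counts were 1641, 1298 and 16380 in the *RsCDX2*, *Mx1Cre* and wild-type controls and 586.9, 358.6 and 437.9 in the *MxCDX2* mice. The groups did not overlap, and the log2 fold change was -3.80 ± 1.05 (adjusted p = 0.044, edgeR). *Gp1bb* (chr16:18620317-18622403, minus strand, 1 exon block) encodes GPIb-beta, which is joined to GPIb-alpha by disulfide bonds. Its counts were 690, 511.4 and 8360 in the controls and 238.3, 192 and 254.2 in the *MxCDX2* mice. Its log2 fold change was as large as that of *Gp5*, at -3.80, but its standard error was 1.13 and its adjusted p of 0.0547 in edgeR missed the threshold. Its exon is also the least certain to count: in GENCODE M21, 91.1% of it lies in exons of *Sept5* on the same strand. HTSeq by default leaves out reads that fall on exons of more than 1 gene, and the overlap in the Ensembl release that the authors counted on was not checked. *Sept5*, a septin gene, was counted at 5658, 5733 and 3462 in the *RsCDX2*, *Mx1Cre* and wild-type controls, so it did not share the high value of *Gp1bb* in the wild-type mouse. In the *MxCDX2* mice it was counted at 1782, 2817 and 1840, and it was itself called lower (log2 fold change -1.21, adjusted p = 0.0207, edgeR). Whether *Sept5* RNA adds to the counts of *Gp1bb* was not tested. The other 9 platelet genes share no exon with another counted gene in GENCODE M21.

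*Gp6* (chr7:4363965-4397744, minus strand, 8 exon blocks) encodes the collagen receptor glycoprotein VI. It was counted at 485.6, 289.9 and 3174 in the *RsCDX2*, *Mx1Cre* and wild-type controls and at 301.9, 173.4 and 213.3 in the *MxCDX2* mice. It was the only one of the 10 genes whose groups overlapped. Its log2 fold change was -2.52 ± 0.90 (adjusted p = 0.0922, edgeR).

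*Itga2b* and *Itgb3* encode the alphaIIb and beta3 chains of the fibrinogen receptor. *Itga2b* (chr11:102453297-102470122, minus strand, 28 exon blocks), also the early megakaryocyte marker CD41, was counted at 7435, 7905 and 64954 in the *RsCDX2*, *Mx1Cre* and wild-type controls and at 4564, 4137 and 4749 in the *MxCDX2* mice. Its log2 fold change was -2.58 ± 0.87 (adjusted p = 0.0799, edgeR). *Itgb3* (chr11:104608000-104670476, plus strand, 16 exon blocks) encodes a chain that also pairs with alphaV outside the platelet lineage. It was counted at 12007, 9321 and 67179 in the controls and at 7485, 7655 and 7123 in the *MxCDX2* mice. Its log2 fold change, -1.99 ± 0.75 (adjusted p = 0.105, edgeR), was the smallest of the 10. The 3 *MxCDX2* mice were close to each other for both integrin genes, with coefficients of variation of 6.99% and 3.67%.

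The alpha granule cargo genes were *Vwf*, *Pf4* and *Ppbp*. *Vwf* (chr6:125546774-125686679, plus strand, 56 exon blocks), which endothelial cells also express, was counted at 4326, 4292 and 37226 in the *RsCDX2*, *Mx1Cre* and wild-type controls and at 2026, 1761 and 1565 in the *MxCDX2* mice. Its log2 fold change was -3.10 ± 0.90 (adjusted p = 0.052, edgeR). *Pf4* (chr5:90772435-90773383, plus strand, 3 exon blocks) and *Ppbp* (chr5:90768518-90770063, plus strand, 3 exon blocks) are neighboring genes of the CXC chemokines platelet factor 4 and pro-platelet basic protein. *Pf4* was counted at 5620, 4191 and 53514 in the controls and at 3360, 2578 and 3813 in the *MxCDX2* mice. *Ppbp* was counted at 14926, 7251 and 116103 in the controls and at 4557, 2495 and 4206 in the *MxCDX2* mice. Both chemokine genes were without overlap, but the gap was narrow for *Pf4*, whose *Mx1Cre* control (4191) stood just above *MxCDX2* mouse 3 (3813). The log2 fold changes were -2.70 ± 0.98 for *Pf4* (adjusted p = 0.0975, edgeR) and -3.62 ± 1.05 for *Ppbp* (adjusted p = 0.0519, edgeR).

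Against these values, 20.7% of all tested genes had every *MxCDX2* mouse below every control, so that the same order in 9 of 10 platelet genes is to be read beside that share. All 10 genes had an unadjusted p below 0.05 in edgeR. In the exact two-sided permutation test of 3 mice against 3, which cannot give a p below 0.10, the p was 0.10 for 9 genes and 0.20 for *Gp6*. The median log2 fold change of the 10 genes was -3.34, against 0.00 over all tested genes. Same-numbered mice were only weakly alike, and among the controls the replicate number is also the genotype, so a block on it cannot be told apart from control genotype. With the replicate number as a block, 1 of the 10 genes, *Gp9*, stayed past the thresholds (log2 fold change -2.91, adjusted p = 0.0411 in edgeR), where 9.25% of all genes were called lower. In the blocked fit *Gp1ba* had a log2 fold change of -2.76 (adjusted p = 0.0709, edgeR) and *Gp5* of -2.75 (adjusted p = 0.0823, edgeR). DESeq2, the tool of the methods, called 4 of the 10 lower, *Ppbp*, *Itgb3*, *Gp9* and *Gp6*, where 10.8% of genes with an adjusted p were called lower. It returned no adjusted p for the other 6, because its rule on outlying counts masked them. With that masking off, it called 8 of the 10, where 10.9% of all genes with an adjusted p were called lower, and *Pf4* (adjusted p = 0.062) and *Itga2b* (adjusted p = 0.0504) missed.

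The 3 control genotypes were not alike for these genes. The wild-type mouse exceeded the higher of the other controls by at least 5.6 times (*Itgb3*) and at most 12.1 times (*Gp1bb*), so it was at least 2-fold above in 10 of 10 genes, where 8.84% of all tested genes showed the same. The ratio of the wild-type level to the mean of the other controls was 13.9 for *Gp1bb*, 11.1 for *Gp5*, 10.9 for *Pf4*, 10.5 for *Ppbp* and 6.3 for *Itgb3*, with the remaining 5 genes between 8.19 and 8.64. The median ratio was 8.55 for the 10 genes and 0.999 for all tested genes. The *RsCDX2* and *Mx1Cre* controls lay close together beside this gap, and the *RsCDX2* mouse was the higher of the pair in every gene but *Itga2b*. As a result the coefficient of variation of the 3 controls was 111% to 141%, against 3.67% to 29.4% in the *MxCDX2* mice. The wild-type library, with 49640783 reads on genes, was the deepest of the controls and close to the deepest of the 6 (49899650). Whether its genotype, the mouse or the sampled marrow goes with its values cannot be told apart with 1 mouse.

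Without the wild-type mouse, the 3 *MxCDX2* mice were compared with the *RsCDX2* and *Mx1Cre* controls, in a fit where 9.16% of all genes were called lower. All 4 genes of the GPIb-IX-V complex were called: *Gp9* at -1.92 ± 0.21 (adjusted p = 0.00368, edgeR), *Gp1ba* at -1.80 ± 0.24 (adjusted p = 0.00604, edgeR), *Gp5* at -1.66 ± 0.23 (adjusted p = 0.00689, edgeR) and *Gp1bb* at -1.38 ± 0.21 (adjusted p = 0.00923, edgeR). Their mean in the *MxCDX2* mice was 26.1% to 38% of the mean of these controls. *Ppbp* at -1.55 ± 0.36 (adjusted p = 0.0294, edgeR) and *Vwf* at -1.25 ± 0.12 (adjusted p = 0.00311, edgeR) were also called, at 33.8% and 41.4% of the controls. The integrin chains passed the adjusted p but not the fold threshold, with *Itga2b* at -0.76 ± 0.09 (adjusted p = 0.00431, edgeR) and *Itgb3* at -0.50 ± 0.12 (adjusted p = 0.0327, edgeR). *Pf4* at -0.58 ± 0.19 (adjusted p = 0.0789, edgeR) and *Gp6* at -0.74 ± 0.33 (adjusted p = 0.155, edgeR) passed neither. These last 4 genes kept 58.5% to 69.6% of the level in the *RsCDX2* and *Mx1Cre* controls. Whether the fold changes differ between the genes was not tested.

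**Figure D2:**
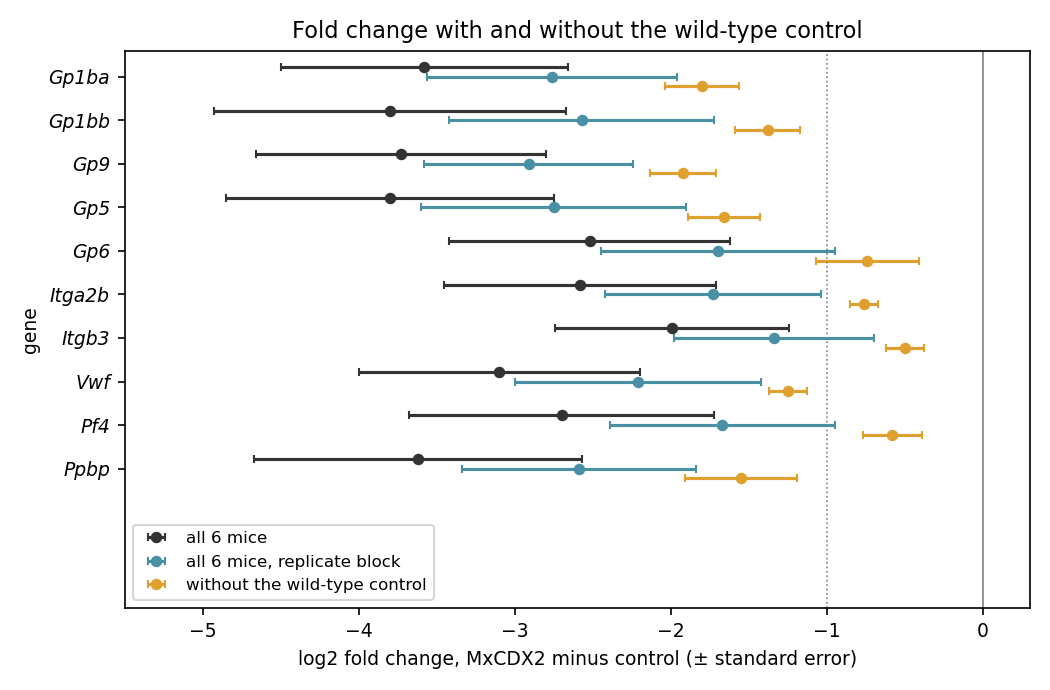
Log2 fold change (*MxCDX2* minus control) of each gene with its standard error, in the fit of all 6 mice, in the same fit with the replicate number as a block, and without the wild-type control. The dotted line marks a log2 fold change of -1. Every estimate lies below 0. Without the wild-type control the estimates shrink to between -0.50 and -1.92, and the 4 GPIb-IX-V genes, *Vwf* and *Ppbp* stay beyond the dotted line.

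The order of the transcripts within a marrow was read from normalized counts per kb of exon, a scale that corrects for transcript length. *Gp1bb* was left out of this order, since the length of its exon on which reads could be counted is uncertain. The wild-type marrow was led by the granule chemokines, with *Ppbp* at 107205 and *Pf4* at 74222 normalized counts per kb. *Gp9* (13745), *Itga2b* (11909), *Itgb3* (11384) and *Gp5* (7456) followed, and *Gp1ba* (4225), *Vwf* (2317) and *Gp6* (538.1) were lowest of the 9 genes. In the *MxCDX2* marrows the mean levels per kb were 4508 for *Pf4* and 3465 for *Ppbp*. *Pf4* was above *Ppbp* in each of the 3 *MxCDX2* mice and below it in every control, at 7795 against 13782 in the *RsCDX2* marrow and 5813 against 6695 in the *Mx1Cre* marrow. *Itgb3* (1258) and *Itga2b* (822) came next and were above *Gp9* (425.9) in each of the 3 mice, the reverse of their order in the wild-type marrow. *Gp5* (209.9), *Gp1ba* (146.2) and *Vwf* (111.1) followed, in this order in each of the 3 *MxCDX2* mice, and *Gp6* (38.9) was again lowest. In the *RsCDX2* marrow *Itgb3* (2035) stood just above *Gp9* (1904), and in the *Mx1Cre* marrow *Itgb3* (1580) and *Itga2b* (1449) were both above *Gp9* (1356), so the order of these 3 was not the same in every control.

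A further 53 megakaryocyte and platelet genes, in 4 lists, were all tested. Of them 16 were called lower and 1 higher, and their median log2 fold change was -1.97. Over all tested genes 9.03% were called lower and 4.59% higher, and the counts of every list below are to be read beside these shares. Without the wild-type mouse 17 were lower and 3 higher, with a median of -0.80, where 9.16% of all genes were called lower. The wild-type mouse was at least 2-fold above the higher of the other controls in 28 of the 53, against 8.84% of all tested genes, with a median ratio of 2.33 to the mean of the others.

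Of 14 other surface receptors, 5 were called lower, with a median of -2.87. None was called higher in edgeR, DESeq2 or voom, where the 1 receptor gene higher at an unadjusted p below 0.05 was *Fcer1g* (log2 fold change 0.38), the signaling partner of glycoprotein VI that many myeloid cells share. *Mpig6b*, which encodes the inhibitory receptor G6b-B, had the largest fall: its counts were 661.9, 526.3 and 6035 in the *RsCDX2*, *Mx1Cre* and wild-type controls and 114.4, 9.797 and 27.86 in the *MxCDX2* mice. It fell by 5.58 ± 1.37 on the log2 scale (adjusted p = 0.0309, edgeR) and was at 8.53% of the *RsCDX2* and *Mx1Cre* controls, well under any of the 10 glycoprotein and granule genes. *P2ry12*, the ADP receptor targeted by antiplatelet drugs, fell by 3.92 (adjusted p = 0.0168, edgeR). *Itga2*, a chain of the collagen-binding integrin, fell by 3.30 (adjusted p = 0.042, edgeR). The tetraspanin gene *Cd9* fell by 1.97 (adjusted p = 0.00591, edgeR). *Itga2* was no longer called under the replicate block (adjusted p = 0.0517, edgeR) or without the wild-type mouse (adjusted p = 0.066, edgeR). Not every receptor followed. *P2ry1*, the other ADP receptor, was counted at 1360, 1109 and 3495 in the controls and at 3426, 3482 and 2378 in the *MxCDX2* mice. *P2rx1*, an ATP-gated channel, was at 1779, 1511 and 8105 in the controls and at 3725, 4026 and 4406 in the *MxCDX2* mice. Neither was called with all 6 mice, and against the *RsCDX2* and *Mx1Cre* controls both were higher, by log2 fold changes of 1.35 (adjusted p = 0.00928, edgeR) and 1.32 (adjusted p = 0.00269, edgeR).

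Of 16 other granule genes, 4 were called lower and 1 higher, with a median of -2.12. *Mmrn1*, the factor V carrier multimerin, fell by 3.72 (adjusted p = 0.0352, edgeR), and the coagulation factor V gene *F5* fell by 2.30 (adjusted p = 0.0103, edgeR). Of the platelet-derived growth factor genes, *Pdgfa* fell by 2.88 (adjusted p = 0.0222, edgeR) and *Pdgfb* fell by 2.76 (adjusted p = 0.0492, edgeR). *Pdgfb* was not called under the replicate block (adjusted p = 0.103, edgeR). The gene that rose was *F13a1*, the A subunit of factor XIII, which monocytes and macrophages also make. It was counted at 18304, 15708 and 6910 in the *RsCDX2*, *Mx1Cre* and wild-type controls and at 103480, 120068 and 117944 in the *MxCDX2* mice, a log2 fold change of 3.06 ± 0.38 (adjusted p = 0.00345, edgeR), and it was lowest in the wild-type mouse.

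Among 13 cytoskeleton and integrin signaling genes, 2 were called lower, where 9.03% of all tested genes were, and the median was -0.60. None was higher in edgeR, DESeq2 or voom, with 0 at an unadjusted p below 0.05. They were the megakaryocyte-restricted beta tubulin *Tubb1*, at 3164, 2285 and 20606 in the controls and 717.2, 51.92 and 155 in the *MxCDX2* mice, and the myosin light chain *Myl9*, at 2390, 1407 and 14402 against 433.3, 27.43 and 121.9. *Tubb1* fell by 4.82 (adjusted p = 0.0416, edgeR) and *Myl9* fell by 4.97 (adjusted p = 0.0384, edgeR). Both calls were lost without the wild-type mouse, at adjusted p of 0.0658 for *Tubb1* and 0.0586 for *Myl9* in edgeR, although the *MxCDX2* mean was 11.3% and 10.2% of the other controls. In these 2 genes and *Mpig6b*, *MxCDX2* mouse 1 was the highest and mouse 2 the lowest of the *MxCDX2* mice, with over 10-fold between them.

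Of 10 megakaryocyte transcription factors, 5 were called lower and none higher in edgeR, DESeq2 or voom. The wild-type mouse was at least 2-fold above the other controls in 1 of 10, *Meis1*, near the 8.84% over all tested genes. *Gata1* was counted at 6061, 5676 and 8760 in the *RsCDX2*, *Mx1Cre* and wild-type controls and at 1421, 382.1 and 750.4 in the *MxCDX2* mice, a log2 fold change of -3.01 ± 0.48 (adjusted p = 0.00749, edgeR). *Zfpm1*, its cofactor, fell by 2.86 (adjusted p = 0.00451, edgeR), *Gfi1b* fell by 3.13 (adjusted p = 0.00412, edgeR) and *Tal1* fell by 1.78 (adjusted p = 0.00228, edgeR). These 4 factors also act in erythroid cells, and each was called in all 6 fits that left out 1 mouse. *Meis1* fell by 2.32 (adjusted p = 0.0434, edgeR, and 0.0523 with the replicate block). *Runx1*, the 1 factor higher at an unadjusted p below 0.05, had a log2 fold change of 0.79 (adjusted p = 0.00277, edgeR). *Nfe2* was at -0.52 (adjusted p = 0.0206, edgeR) and *Fli1* at -0.32 (adjusted p = 0.113, edgeR). None of these was beyond the fold threshold, and *Runx1* and *Nfe2* missed the call on that threshold alone.

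**Figure D3:**
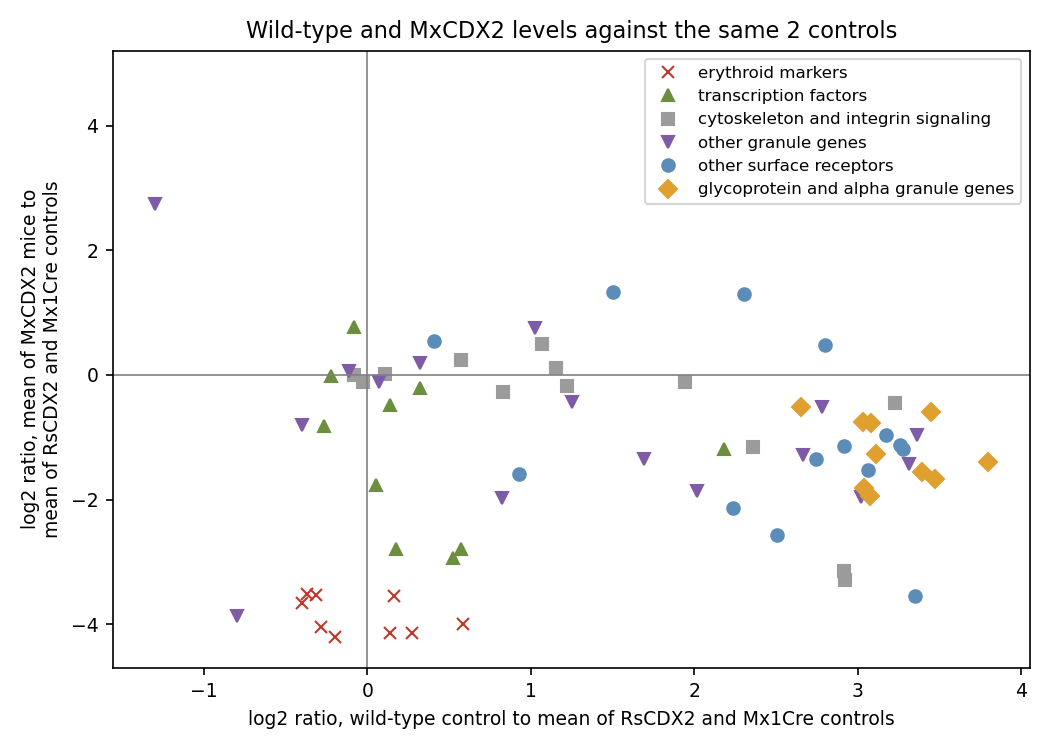
Each point is 1 gene, placed by the log2 ratio of the wild-type control (x axis) and of the *MxCDX2* mean (y axis) to the same mean of the *RsCDX2* and *Mx1Cre* controls. Both axes share this denominator, so no correlation is given. The 10 glycoprotein and alpha granule genes lie at high wild-type ratios (6.3 to 13.9) with a moderate reduction in *MxCDX2* mice. The transcription factor genes *Gata1*, *Gfi1b* and *Zfpm1* lie at wild-type ratios of 1.13 to 1.49 and at 13.1% to 14.5% in *MxCDX2* mice, nearer to the erythroid markers. The other listed transcription factor genes do not, at 29.5% (*Tal1*) to 170% (*Runx1*) in *MxCDX2* mice.

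Markers of other marrow cells were read beside these results. The summed level of the 10 platelet genes was 50325, 37531 and 390483 in the *RsCDX2*, *Mx1Cre* and wild-type controls and 24041, 19993 and 23115 in the *MxCDX2* mice. The wild-type sum was thus 8.89 times the mean of the other controls, and the *MxCDX2* sums were 45.5% to 54.7% of that mean. Endothelial markers, whose cells also express *Vwf*, moved the same way to a lesser degree. The wild-type mouse was highest in 10 of 10 of them, their sum there was 2.59 times that of the other controls, the *MxCDX2* sums were 49.2% to 69.2%, and 4 of 10 were called lower. Hematopoietic stem cell markers, a population that shares *Meis1* and some *Vwf* with megakaryocytes, had a wild-type sum of 1.8 times the others, with the wild-type mouse highest in 6 of 6. Their *MxCDX2* sums were 73.6% to 93.4%, and 0 of the 5 tested were called in edgeR or voom, with 1 lower at an unadjusted p below 0.05, *Hlf*, which DESeq2 called. Osteoclast markers, whose cells express *Itgb3*, had a wild-type sum of 1.44 times the others and *MxCDX2* sums of 11.8% to 30.3%, with 1 of 4 tested called lower. *Acp5*, with a wild-type ratio of 1.24, carries this sum. The wild-type mouse was highest in 5 of 6 of these markers, all but *Atp6v0d2* (ratio 0.675). It was at least 2-fold above the higher other control in 2, where 8.84% of all tested genes were. These were *Ctsk* (ratio 5.54) and *Dcstamp* (ratio 6.5, at low counts). Mast cell and basophil markers had a wild-type sum of 1.02 times the others and *MxCDX2* sums of 20.2% to 47.2%, with 4 of 6 tested called lower. The abundant genes of that list, *Prss34* and *Mcpt8*, are basophil genes and carry its sum. The mast cell protease genes in it differed. *Cpa3*, the most abundant of them, did not share the high value of the wild-type mouse. It was at 1320, 1400 and 1536 in the *RsCDX2*, *Mx1Cre* and wild-type controls and at 1107, 1855 and 678.1 in the *MxCDX2* mice. The high value was seen in *Cma1* and *Tpsb2*, both at low counts. *Cma1* was at 14.06, 13.9 and 169.6 in the *RsCDX2*, *Mx1Cre* and wild-type controls and at 6.356, 2.939 and 4.353 in the *MxCDX2* mice. *Tpsb2*, too low to be tested, was at 1.278, 2.979 and 124 in the controls and at 0 in all 3 *MxCDX2* mice. The part of these cells in the platelet gene results was not tested.

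The sums of the remaining lists were at or below 1.05 times the other controls in the wild-type mouse. Erythroid markers, which share GATA1 control with megakaryocytes, had a wild-type sum of 1.05 times the other controls, yet 9 of 9 tested were called lower, with *MxCDX2* sums of 2.59% to 10.1%. Neutrophil lineage markers were at 0.664 times in the wild-type mouse and at 31.1% to 42.1% in the *MxCDX2* mice (3 of 6 lower). The sum does not hold for each of them: *Mpo*, *Elane* and *Camp* were not called with all 6 mice. Their *MxCDX2* means were 91.3%, 57.7% and 36.7% of the other controls, and their wild-type ratios 0.21, 0.145 and 0.503. B cell markers were at 0.472 times in the wild-type mouse and at 9.96% to 32.2% in the *MxCDX2* mice (4 of 5 lower). Monocyte markers were at 0.701 times in the wild-type mouse and at 349% to 408% in the *MxCDX2* mice, with 4 of 6 called higher. The 10 platelet genes were therefore reduced less, relative to the *RsCDX2* and *Mx1Cre* controls, than the erythroid sum in each *MxCDX2* mouse.

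**Figure D4:**
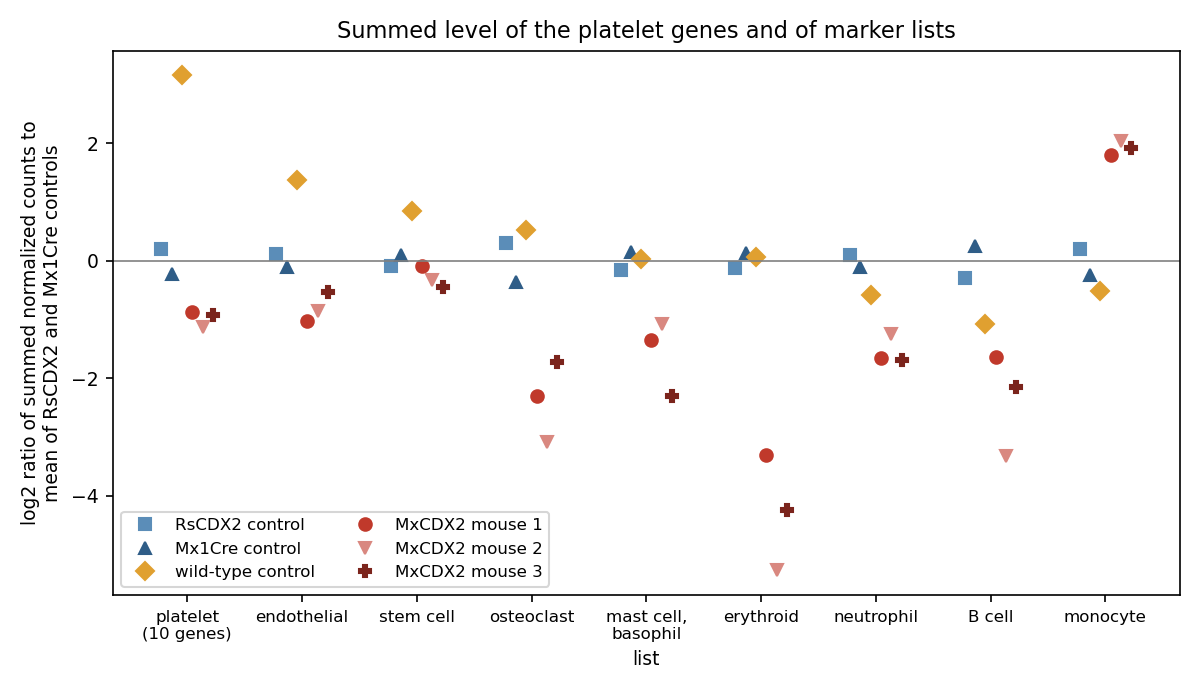
Log2 ratio of the summed normalized counts of each list to the mean of the *RsCDX2* and *Mx1Cre* controls, with 1 symbol per mouse. The wild-type mouse stands 8.89-fold above this mean for the 10 platelet genes and 2.59-fold for endothelial markers, and lies at 1.05 for erythroid markers, for which the *MxCDX2* mice are lowest.

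The genes whose pattern over the 6 mice was most like the mean pattern of the 10 genes were found by Pearson's r on log2 CPM (library-scaled counts), among 15970 other tested genes. With 6 mice, 1 of which stands apart, such an r mostly reflects that mouse, and it is given as a description. *F2rl3*, which encodes the thrombin receptor PAR4, came first (r = 0.9998), at 502.2, 377.3 and 4271 in the *RsCDX2*, *Mx1Cre* and wild-type controls and 227.8, 156.7 and 192.4 in the *MxCDX2* mice. It was the only one of the first 10 that is on a platelet list. The others were *Pkd1l3* (r = 0.9991), *Gbx2* (r = 0.9989), *Taf9b* (r = 0.9982), *Rbpms2* (r = 0.9978), *Tmem158* (r = 0.9976), *Med12l* (r = 0.9975), *Gcsam* (r = 0.9974), *Trim47* (r = 0.9974) and *Amy1* (r = 0.9973). Likeness of pattern did not mean likeness of size: the wild-type level of *Rbpms2* was 9.64 times the mean of the other controls, and that of *Taf9b* 1.92 times.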

How the data were processed

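Bone marrow RNA extracted with Trizol was sequenced as Illumina TruSeq stranded mRNA libraries, 1 per mouse. The authors aligned reads with STAR (version 2.5) to GRCm38 and deposited raw read counts per gene from HTSeq (version 0.6.1), without normalization. The methods name Ensembl release 90, and the submitters' processing notes name bcl2fastq (version 2.17.1.14). Rows that name no gene, 12.2% to 17.1% of reads, were left out. Symbols came from GENCODE M21, which matched 37607 of the 39179 identifiers.

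Groups came from the labels. Counts were analyzed in R 4.3.3 with edgeR 4.0.16 (TMM, default filterByExpr, glmQLFit, glmQLFTest), with Benjamini-Hochberg adjustment over 15980 genes and the thresholds of the methods. Standard errors were derived from the F statistic. DESeq2 1.42.0 and limma 3.58.1 (voom) were alternatives, and Python 3.11.15 with scipy 1.17.1 gave the exact permutation tests. Tests were tried on simulated data with 200 changed genes. Of these edgeR found 197 with 10 false calls, voom 197 with 10 and DESeq2 200 with 45. All simulated mice of a group shared 1 mean per gene. The simulation therefore does not cover a control that stands apart, as the wild-type mouse does for the 10 genes.

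The members, lists and tests were chosen with earlier results of these data known. Named genes were all 10 members, the 2 largest rises and 2 largest falls called in each other list, those of any count of 5 or fewer, and the 10 most alike over the mice. *P2ry1*, *P2rx1*, *Fcer1g*, *Hlf*, *Runx1*, *Nfe2*, *Fli1*, *Sept5*, *Cma1*, *Tpsb2*, *Cpa3*, *Prss34* and *Mcpt8* were named after their values were seen. So were *Acp5*, *Ctsk*, *Dcstamp*, *Atp6v0d2*, *Mpo*, *Elane* and *Camp*. Genes of the fixed lists that were not counted, such as *Ahsp*, were not analysed here. Some genes that the naming rule covers are counted in their list but not reported by name here.

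Deviations from the group means correlated at 0.156, 0.287 and 0.176 between same-numbered mice and at -0.336 to 0.122 between differently numbered ones. These correlations are not independent, since each deviation is taken from the mean of the same mice. Among the controls the replicate number is also the genotype, so the block cannot be told apart from control genotype. Control numbers came from the sample description and *MxCDX2* numbers from the titles. Neither source says what a number shares. No 2 libraries of a group were duplicates, and the chi-square per degree of freedom between replicate counts was 71.6 to 242.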

Additional observations from a re-analysis of the deposited data

How the results depend on the processing

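Every one of the 154 alternative fits of single platelet genes gave a negative log2 fold change, and 117 kept their side of the thresholds, 20 passed them where the reported fit did not, and 17 failed them. Of the 10 genes, 3 were called with DESeq2's size factors, with scaling by total counts alone, after dropping the 10 most abundant genes, or with at least 10 counts required in every mouse. With every gene of at least 1 count tested, 6 were called, and DESeq2 without outlier masking, an alternative chosen after seeing the data, called 8. The replicate block left 1, and limma's voom 0 (5 at an unadjusted p below 0.05, where edgeR had 10) and testing for a log2 fold change beyond 1 also 0 (9 at an unadjusted p below 0.05). Leaving out single mice gave 0 to 7: 0 without *MxCDX2* mouse 1, 2 or 3 in turn, 5 without the *RsCDX2* control, 7 without the *Mx1Cre* control and 6 without the wild-type control. For the 53 other platelet genes the count was 17, and it was 28 by DESeq2 without outlier masking, 9 by voom, 5 in the test for a log2 fold change beyond 1, 17 with the block and 6 to 24 with 1 mouse left out, lowest without *MxCDX2* mouse 3 (6) and mouse 2 (7). Over all genes 2177 were called, 2205 with the block, 611 in the test for a log2 fold change beyond 1, and 1205 to 2406 with 1 mouse left out, lowest without *MxCDX2* mouse 3. The cause of these differences was not tested. How depth, the 3 mice per group and the spread among 3 control genotypes each limit these comparisons was not tested.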
